A study of Glycine soja with 14 samples.

Results

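GASA genes encode small, cysteine-rich secreted peptides, and 16 of them were followed in young leaves during bicarbonate treatment of line G07256 of wild soybean, Glycine soja. The members were the soybean probe sets whose only gene symbol in the array's public annotation begins with GASA. There were 20 such probe sets, of 8677 soybean probe sets with 1 symbol and 37593 soybean probe sets in all. GASA14 had 3 probe sets, GASA27 and GASA32 had 2 each, and the other 13 genes had 1 each.

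The family takes its name from genes stimulated by gibberellic acid, and its members share a C-terminal domain with a fixed pattern of cysteines. Gibberellin acts by removing DELLA proteins, which hold back growth, and several GASA genes respond to this pathway. In Arabidopsis and other plants, members have been linked to cell elongation, leaf expansion, flowering time, redox balance, and defence, where they are also called snakins. In Arabidopsis, GASA4 and GASA6 are induced by gibberellin, and GASA14 affects leaf growth and reactive oxygen. The soybean numbers belong to a separate numbering, so a shared number does not make 2 genes counterparts.

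Seedlings aged 21 days stood in nutrient solution with 50 mM sodium bicarbonate at pH 8.5, and young leaves were taken after 0.5, 1, 3, 6, 12 and 24 h. Leaves at 0 h came from seedlings without bicarbonate and were the only untreated ones, so the effects of treatment and of time of day cannot be told apart, though the 24 h samples came a full day after 0 h. All plants grew at 24 °C with 12 h of light. Each time had 2 arrays, each of RNA pooled from 3 plants of 1 line. The array carries soybean probes and was hybridised with RNA of wild soybean, and probe sets ending in _s_at hold probes shared by several transcripts. All 6 comparisons with 0 h share the same 2 untreated arrays.

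The 14 arrays had summed intensities of 7413137 to 8230026, and 66.1 to 77.2% of soybean probe sets lay above background, which was the 95th percentile of the probe sets of 2 other organisms on the array. Replicate arrays correlated at 0.965 to 0.985 across soybean probe sets. The control probe sets moved with time. Spike-in bioB read 213 and 202 at 0.5 h against 484 and 526 at 0 h. The 18S ribosomal RNA probe set read 63.1 and 25.6 at 0.5 h, 996 and 748 at 3 h and 1696 and 2274 at 6 h, against 454.5 and 405.2 at 0 h. The part of this in the GASA results at those times was not tested. Without 6 h replicate 2, the array with the highest 18S value, the 4 called GASA rises at 6 h were smaller and the fall of GASA22 was larger. The rise of GASA14 on GmaAffx.90343.1.S1_s_at went from 1.35 to 1.06 log2. That of GASA32 on GmaAffx.64740.1.S1_at went from 0.76 to 0.48. The part of 18S in this was not tested. Of 17 probe sets of leaf genes (CAB3, CHLH, PSAD and RCA forms), 14 were above background on every array and 3 on some. Their summed intensity was 62322 to 62555 at 6 h and 34538 to 41642 at 12 h, against 73370 to 74616 at 0 h. At 6 h, 6 of these 17 were called lower, against 5.84% of all soybean probe sets, and at 12 h, 11 of 17 were, against 13% of all. The part of this in the GASA results at 6 and 12 h was not tested. In bulk leaves, fewer cells of a type and less RNA per cell cannot be told apart. Of 4 root and nodule probe sets (NOD33 and ENOD genes), 1 was above background on every array. At 12 h 1 of the 4 was called higher, against 11.4% of all soybean probe sets. The sum of the 4 was 368 and 164 at 12 h against 119 and 114 at 0 h. Of 45 seed protein probe sets, 20 were never above background and 7 always were. At 24 h 4 of the 45 were called higher and 1 lower, against 2.22% and 2.99% of all soybean probe sets. The sum of the 45 was 9878 to 10382 at 24 h against 6303 to 7581 at 0 h. The part of these in the GASA results at 12 and 24 h was not tested.

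Values below are intensities after scaling each array to a common soybean median of 56.4. Changes are log2 differences of (value + 16) ± SE with n = 2 arrays per time, later minus earlier, and on this scale a change of a dim gene is smaller than its fold. Adjusted p-values are from limma with Benjamini-Hochberg adjustment over all soybean probe sets, and a change is called where that is below 0.05. Of the 20 GASA probe sets, 13 were above background on all 14 arrays, 4 on some, and 3 on none. The 3 never above it were GASA12 (0.993 to 15.4), GASA21 (1.05 to 13.7) and GASA33 (2.49 to 18.7), and no change of theirs was called.

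The family moved in different directions and at different times. GASA14 and GASA32 were highest at 6 h, GASA22 was lowest at 6 h and highest at 12 h, GASA9, GASA11 and GASA27 were higher at 12 h, and at 24 h GASA24 was higher and GASA6 lower. By limma's F test over the 6 times, 11 of 20 probe sets in 8 genes changed, against 30.4% of all soybean probe sets. The 8 genes were GASA6, GASA9, GASA11, GASA14, GASA22, GASA24, GASA27 and GASA32.

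**Figure D1:**
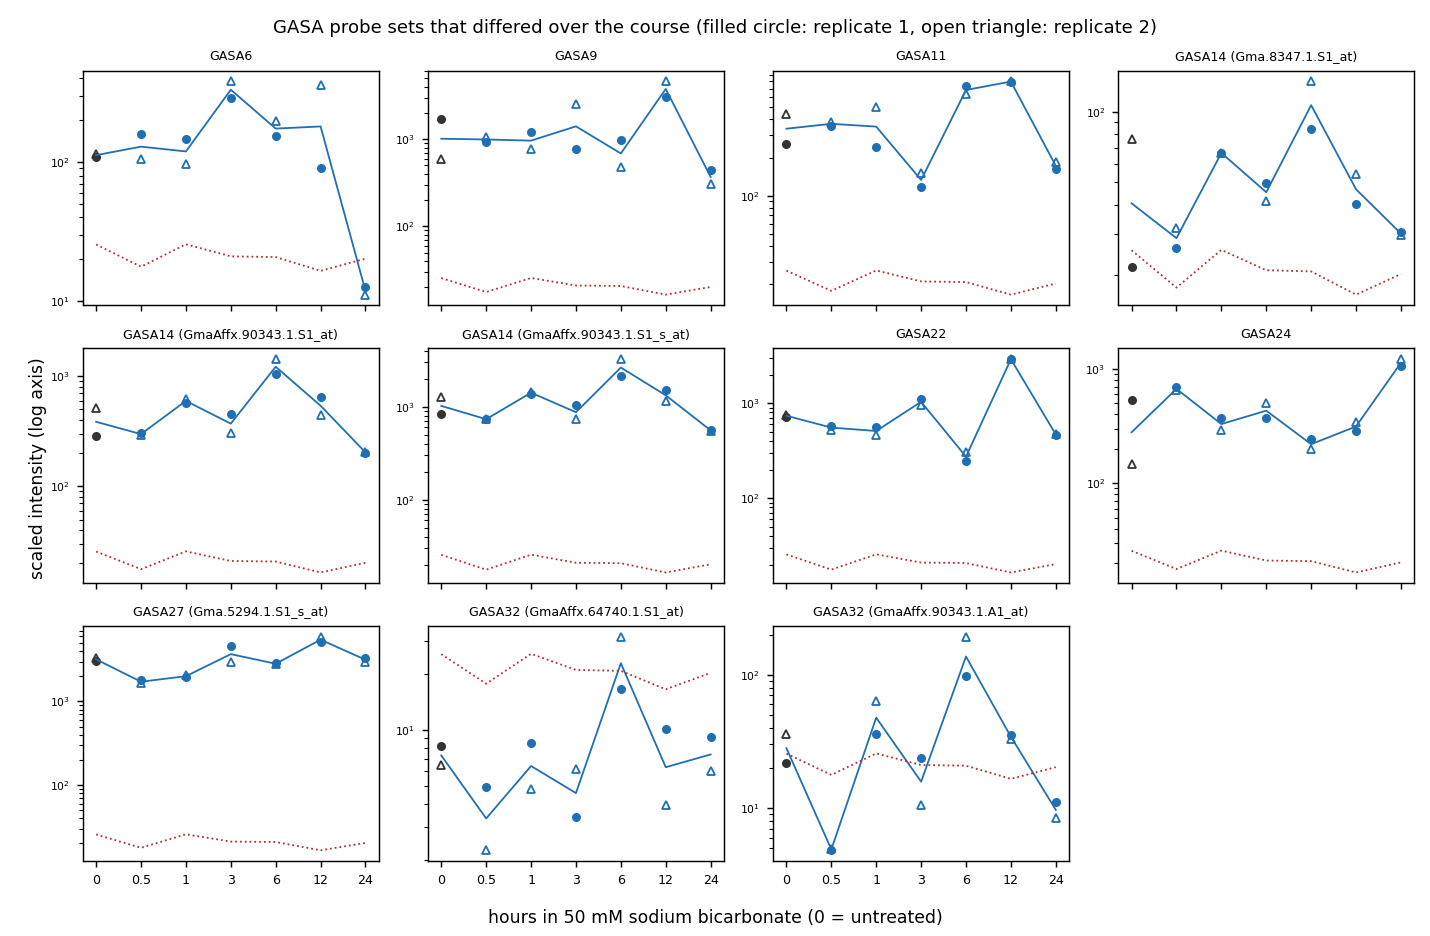
Scaled intensity (log axis) of the 11 GASA probe sets that passed the F test, at 0 h (dark grey) and after 0.5 to 24 h (blue), with times spaced evenly. Filled circles are replicate 1, open triangles replicate 2, the line joins means of log2 intensity and the dotted line is the mean background. GASA22 falls to 245 and 305 at 6 h and reaches 2903 and 2911 at 12 h.

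GASA22 had the lowest F test p of the family (adjusted p = 2.55e-06), and its replicates were the closest, differing by at most 0.30 log2 at any time. Its intensities were 718 and 759 at 0 h, 581 and 528 at 0.5 h, 564 and 461 at 1 h, 1109 and 966 at 3 h, 245 and 305 at 6 h, 2903 and 2911 at 12 h, and 463 and 475 at 24 h. Both arrays of 6 h lay below, and both arrays of 12 h above, all others. GASA22 fell by 1.38 ± 0.15 at 6 h against 0 h (adjusted p = 0.000301). At 12 h it rose by 1.95 ± 0.15 against 0 h (adjusted p = 1.03e-05). In order of level, 12 h was followed by 3 h, 0 h, 0.5 h, 1 h, 24 h and 6 h, and the arrays of 0.5 h and 1 h, and of 1 h and 24 h, overlapped.

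The swings of GASA22 between consecutive times were also called. It rose by 1.00 ± 0.15 from 1 to 3 h (adjusted p = 0.015), fell by 1.86 ± 0.15 from 3 to 6 h (adjusted p = 0.000116), rose by 3.33 ± 0.15 from 6 to 12 h (adjusted p = 1.54e-06) and fell by 2.59 ± 0.15 from 12 to 24 h (adjusted p = 1.3e-06). The changes at 6 h, at 12 h and over the last 3 of these steps held without each array in turn. At 24 h, the clock hour of 0 h, GASA22 was lower by a small margin (-0.64 ± 0.15, adjusted p = 0.039). That call ended without either 0 h, 0.5 h or 24 h array (adjusted p up to 0.172), and with quantile normalization (adjusted p = 0.0598) or no scaling (adjusted p = 0.0685).

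GASA14 and GASA32 were highest at 6 h. GASA32 is read by GmaAffx.90343.1.A1_at and GASA14 by GmaAffx.90343.1.S1_at and GmaAffx.90343.1.S1_s_at, which carry the same cluster number, so these 3 readings may not be independent. GmaAffx.90343.1.S1_at read 288 and 515 at 0 h, 304 and 291 at 0.5 h, 568 and 624 at 1 h, 450 and 305 at 3 h, 1038 and 1425 at 6 h, 649 and 447 at 12 h, and 199 and 207 at 24 h. Both 6 h arrays were above all others and both 24 h arrays below all others. GASA14 rose by 1.62 ± 0.28 at 6 h on this probe set (adjusted p = 0.0043) and by 1.35 ± 0.25 on GmaAffx.90343.1.S1_s_at (adjusted p = 0.00658), where the 6 h arrays read 2137 and 3241 against 827 and 1257 at 0 h. The second of these calls ended without 6 h replicate 2 (adjusted p = 0.0666).

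The remaining GASA14 probe set, Gma.8347.1.S1_at, was dimmer and had 84.3 and 134.8 at 6 h against 21.7 and 76.1 at 0 h. Its 6 h value was 1.06 ± 0.33 above 0 h (adjusted p = 0.0680), and without 0 h replicate 2 the difference was called at 1.71 (adjusted p = 0.00293). It passed the F test (adjusted p = 0.0455).

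GASA32 was near background for much of the course. On GmaAffx.90343.1.A1_at it had 21.9 and 36.0 at 0 h, 4.82 and 4.95 at 0.5 h, 36.0 and 63.1 at 1 h, 23.5 and 10.6 at 3 h, 97.8 and 192.3 at 6 h, 35.4 and 33.1 at 12 h, and 11.1 and 8.44 at 24 h. It was above background on both arrays at 1, 6 and 12 h, on 1 array at 0 and 3 h, and on none at 0.5 and 24 h. GASA32 rose by 1.79 ± 0.30 at 6 h against 0 h (adjusted p = 0.00346) and by 2.25 ± 0.30 from 3 to 6 h (adjusted p = 0.002), and both calls held without each array in turn. It was at least 2.69-fold higher at 1 h than at 0.5 h, where it was not above background (adjusted p = 0.0198). At 24 h it was at least 1.69-fold below its 12 h level (adjusted p = 0.0499), a call that ended without any array of 0.5, 12 or 24 h (adjusted p up to 0.207). Its 0.5 h value missed the threshold against 0 h (adjusted p = 0.0813).

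The other GASA32 probe set, GmaAffx.64740.1.S1_at, was above background on 1 array only, at 31.7 in 6 h replicate 2, with 16.5 in 6 h replicate 1 and 8.16 and 6.50 at 0 h. The test called it higher at 6 h (adjusted p = 0.0380), and not without 6 h replicate 2 (adjusted p = 0.262). With 3 of these 4 arrays not above background, no fold is given. Both GASA32 probe sets were highest at 6 h.

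After 6 h the GASA14 and GASA32 readings came down. On GmaAffx.90343.1.S1_at, GASA14 fell by 1.15 ± 0.28 from 6 to 12 h (adjusted p = 0.0258) and by 1.34 ± 0.28 from 12 to 24 h (adjusted p = 0.0076), and GASA32 fell by 1.62 ± 0.30 from 6 to 12 h on GmaAffx.90343.1.A1_at (adjusted p = 0.00749). Both 6 to 12 h calls ended without 6 h replicate 2 (adjusted p = 0.183 for GASA14 and 0.0680 for GASA32), and that of GASA14 also without 6 h replicate 1 or 12 h replicate 2. The 12 to 24 h call of GASA14 ended without 12 h replicate 1 (adjusted p = 0.0760) or 24 h replicate 1. Against 0 h, the 24 h values of the same GASA14 probe set missed the threshold (-0.87 ± 0.28, adjusted p = 0.0903).

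GASA11, GASA9 and GASA27 were higher at 12 h. GASA11 had 258 and 443 at 0 h, 356 and 384 at 0.5 h, 243 and 506 at 1 h, 117 and 151 at 3 h, 734 and 635 at 6 h, 792 and 800 at 12 h, and 162 and 183 at 24 h. The 3 h arrays were the lowest and the 12 h arrays the highest, and neither overlapped with any other time. GASA11 rose by 1.20 ± 0.30 at 12 h against 0 h (adjusted p = 0.015), by 2.23 ± 0.30 from 3 to 6 h (adjusted p = 0.00219), and fell by 2.11 ± 0.30 from 12 to 24 h (adjusted p = 0.00077). Both step calls held without each array in turn, and the 12 h call ended without 0 h replicate 1 (adjusted p = 0.105) or either 12 h array. Against 0 h, its 3 h value (-1.25 ± 0.30, adjusted p = 0.0544) and its 6 h value (0.98 ± 0.30, adjusted p = 0.0651) missed the threshold.

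GASA9 had 1717 and 597 at 0 h, 929 and 1063 at 0.5 h, 1197 and 775 at 1 h, 773 and 2553 at 3 h, 979 and 482 at 6 h, 3078 and 4612 at 12 h, and 443 and 309 at 24 h. Both 12 h arrays lay above and both 24 h arrays below all others, while the replicates differed by over 1 log2 at 0 h and at 3 h. It rose by 1.88 ± 0.58 at 12 h against 0 h (adjusted p = 0.0352) and fell by 3.29 ± 0.58 from 12 to 24 h (adjusted p = 0.00279). The fall held without each array in turn. The rise ended without 0 h replicate 2 (1.13, adjusted p = 0.234) or either 12 h array, and with log2(value + 1) (adjusted p = 0.0625).

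GASA27 is read by Gma.5294.1.S1_s_at, whose probes are shared by several transcripts, and by Gma.5294.1.S1_at. The shared probe set read 3035 and 3356 at 0 h, 1787 and 1662 at 0.5 h, 1950 and 2065 at 1 h, 4557 and 2981 at 3 h, 2852 and 2807 at 6 h, 5092 and 5918 at 12 h, and 3342 and 2985 at 24 h. The 0.5 h arrays were the lowest and the 12 h arrays the highest. On this probe set GASA27 fell by 0.88 ± 0.19 at 0.5 h (adjusted p = 0.0343) and rose by 0.78 ± 0.19 at 12 h (adjusted p = 0.0114), both against 0 h. The fall ended without either 0 h, 0.5 h, 6 h or 24 h array (adjusted p up to 0.247), with quantile normalization (adjusted p = 0.0648), with no scaling (adjusted p = 0.0538) and with log2(value + 1) (adjusted p = 0.0680). The rise ended without 12 h replicate 2 (adjusted p = 0.0717) or 0 h replicate 1.

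Of the 2 GASA27 probe sets, the shared one was called at 0.5 h and 12 h and the other was not, and the difference between them was not tested. Both were higher at 3 h than at 1 h. Their log2 values correlated at r = 0.45 over 14 arrays, and at 0.62 after the mean of each time was taken away. From 1 to 3 h Gma.5294.1.S1_s_at rose by 0.87 ± 0.19 (adjusted p = 0.0385), a call that ended without 9 of the 14 arrays in turn, with 0.57 and adjusted p = 0.172 without 3 h replicate 1. Over the same step Gma.5294.1.S1_at had 1462 and 748 at 3 h against 386 and 343 at 1 h, a difference of 1.49 ± 0.35 that just missed the threshold (adjusted p = 0.0501) and passed it with quantile normalization (adjusted p = 0.0483), where the shared probe set missed it (adjusted p = 0.0620). Gma.5294.1.S1_at stood at 865 and 732 at 0.5 h against 792 and 739 at 0 h, a difference of 0.06 ± 0.35. At 12 h it stood at 837 on both arrays, a difference of 0.13 ± 0.35 (adjusted p = 0.825), with a 95% interval of -0.63 to 0.89. It was lowest at 1 h, at 386 and 343 (-1.04 ± 0.35, adjusted p = 0.387), and missed the F test (adjusted p = 0.0568).

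GASA6 and GASA24 changed at 24 h, where the clock hour is that of 0 h. GASA6 had 109 and 115 at 0 h, 159 and 105 at 0.5 h, 146 and 97.6 at 1 h, 288 and 380 at 3 h, 154 and 197 at 6 h, 90.3 and 359 at 12 h, and 12.6 and 11.2 at 24 h. It was above background on every array up to 12 h and on neither array at 24 h. GASA6 was at least 5.53-fold lower at 24 h than at 0 h (adjusted p = 0.0236) and at least 8.89-fold lower than at 12 h (adjusted p = 0.00136). The second of these calls held without each array in turn. The first ended without either 0 h or 24 h array, where adjusted p reached 0.132, and with log2(value + 64) (adjusted p = 0.0778).

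The 12 h arrays of GASA6 differed by 1.82 log2, so the at least fold from 12 to 24 h holds for their mean and not for each array. With 1 array left out, the GASA6 change over this step ran from -3.75 to -1.93, against -2.84 with all arrays. Its 3 h arrays both lay above both 0 h arrays, but the difference of 1.44 ± 0.44 missed the threshold (adjusted p = 0.103). Without either 12 h array it was called (adjusted p = 0.0232).

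GASA24 had 532 and 146 at 0 h, 690 and 649 at 0.5 h, 371 and 292 at 1 h, 372 and 499 at 3 h, 242 and 199 at 6 h, 288 and 342 at 12 h, and 1051 and 1219 at 24 h. Its 24 h arrays were above all others, and its 0 h arrays spanned the values of 1, 3, 6 and 12 h. GASA24 rose by 1.94 ± 0.41 at 24 h against 0 h (adjusted p = 0.0275) and by 1.80 ± 0.41 from 12 to 24 h (adjusted p = 0.0132). The first call ended without 0 h replicate 2, where the change was 1.07, or either 24 h array, with adjusted p up to 0.150. Without 0 h replicate 1 it was 2.82. The second ended without 12 h replicate 1 (adjusted p = 0.0865) or either 24 h array. At 12 h the sign of its difference from 0 h depended on the 0 h array kept, at 0.14 with both, at -0.73 (adjusted p = 0.0490) if 0 h replicate 2 was left out and at 1.02 (adjusted p = 0.0124) if 0 h replicate 1 was.

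**Figure D2:**
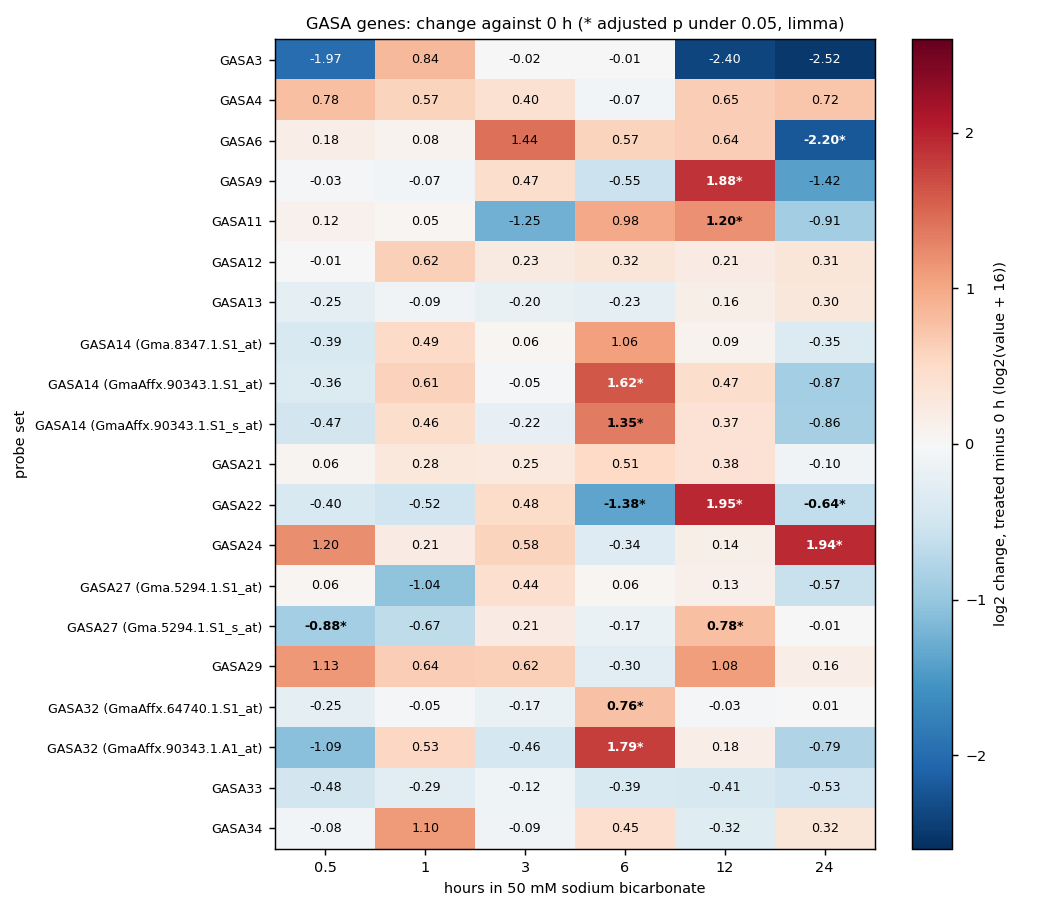
Log2 change of each of the 20 GASA probe sets (rows) at each treated time (columns) against 0 h, on the log2(value + 16) scale, red above and blue below 0 h. Bold values with an asterisk had adjusted p under 0.05, and these are 13 of 120, with 5 of them at 6 h and 4 at 12 h.

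Counted by time against 0 h, 1 of 20 GASA probe sets was lower at 0.5 h, where 2.54% of all soybean probe sets were called, 0.718% higher and 1.82% lower. None was called at 1 h, where none of the 37593 soybean probe sets was, and 5 GASA probe sets had an unadjusted p under 0.05. None was called at 3 h, where 2.46% of all were (0.95% higher and 1.51% lower), and 3 had an unadjusted p under 0.05. The share of all soybean probe sets under that unadjusted cut was not counted at 1 or 3 h, so these counts cannot be set against it. At 6 h, 4 were higher and 1 lower, against 9.99% of all, 4.16% higher and 5.84% lower. These 5 are 3 genes, and 3 of the 4 higher readings came from the GmaAffx.90343 cluster. At 12 h, 4 were higher and 0 lower, against 24.4% of all, 11.4% higher and 13% lower, so the share of 20% called lay near that of all probe sets. At 24 h, 1 was higher and 2 were lower, against 5.21% of all, 2.22% higher and 2.99% lower.

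The family's median change lay within 0.45 log2 of 0 at every time. It was -0.16 at 0.5 h, 0.25 at 1 h, 0.13 at 3 h, 0.19 at 6 h, 0.29 at 12 h and -0.44 at 24 h, where the median of all soybean probe sets was between -0.04 and -0.01. At 12 h, 16 of 20 changes were above 0, and at 24 h, 7 of 20 were.

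Between consecutive times the calls grew in number late in the course. From 0.5 to 1 h 1 GASA probe set was higher, against 3.75% of all called, 2.38% higher and 1.37% lower. From 1 to 3 h 2 were higher and 1 lower, against 2.39% of all, 1.23% higher and 1.15% lower. From 3 to 6 h 5 were higher and 1 was lower, against 4.97% of all, 2.03% higher and 2.94% lower. These 6 are 4 genes, GASA11, GASA14, GASA32 and, lower, GASA22. From 6 to 12 h 3 were higher and 4 lower, against 9.51% of all, 4.13% higher and 5.38% lower. These 7 are 5 genes. GASA9, GASA22 and GASA27 on its shared probe set were higher, and GASA14 and GASA32 were lower on 2 probe sets each. Of the 4 lower readings, 3 came from probe sets with the same cluster number, which may not be independent. The other, of GASA32, was above background on 1 array only. From 12 to 24 h 1 was higher and 8 were lower, against 15.1% of all, 8.11% higher and 7.04% lower. The 8 lower ones were GASA6, GASA9, GASA11, GASA22, GASA27 on its shared probe set, GASA32 and GASA14 on 2 probe sets, and the higher one was GASA24. The median change of the family over this step was -0.58, against -0.01 for all soybean probe sets.

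**Figure D3:**
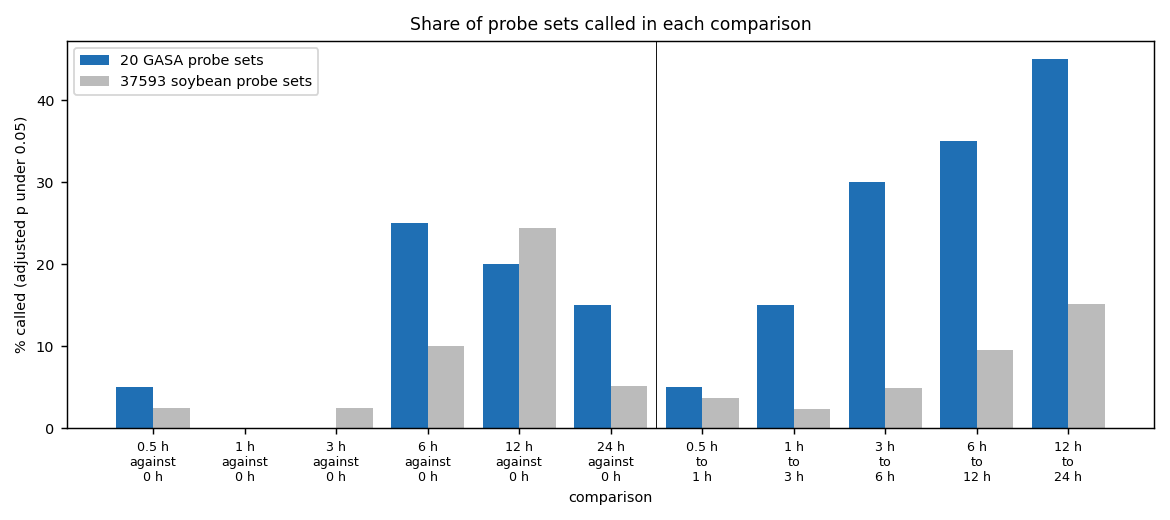
Percent of the 20 GASA probe sets (blue) and of all 37593 soybean probe sets (grey) called by limma in each comparison against 0 h (left of the line) and between consecutive times (right of the line). GASA shares reach 45% from 12 to 24 h, against 15.1% of all soybean probe sets, and 0% at 1 h and 3 h.

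The other 8 genes had no call in any comparison. GASA12, GASA21 and GASA33 were dim, and GASA3, GASA4, GASA13, GASA29 and GASA34 were above background on all arrays. GASA3 spanned the widest range, with 490 and 2713 at 0 h, 589 and 132 at 0.5 h, 2147 and 2031 at 1 h, 1267 and 1037 at 3 h, 1234 and 1076 at 6 h, 426 and 96.7 at 12 h, and 78.8 and 428 at 24 h. Both 12 h arrays and both 24 h arrays were below both 0 h arrays, by -2.40 ± 0.93 (adjusted p = 0.0827) and -2.52 ± 0.93 (adjusted p = 0.134). Without 0 h replicate 1 the 12 h difference was called (-3.61, adjusted p = 0.03). The F test just missed the threshold (adjusted p = 0.0504).

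GASA13 was the steadiest of the bright members, at 375 to 657 over all arrays. Its changes against 0 h ran from -0.25 to 0.30 with SE 0.22, and the 95% interval of the change at 12 h was -0.32 to 0.64. GASA34 was highest at 1 h, at 443 and 360 against 119 and 260 at 0 h (1.10 ± 0.38, adjusted p = 0.394).

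GASA4 and GASA29 differed widely between replicates at 0 h and 12 h. GASA29 had 745 and 204 at 0 h and 452 and 1595 at 12 h, and GASA4 had 197 and 64.3 at 0 h and 97.8 and 352 at 12 h. The same replicate was the higher one for both genes at each of these times. Their log2 values correlated at r = 0.90 over 14 arrays, and at 0.97 after the mean of each time was taken away.

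**Figure D4:**
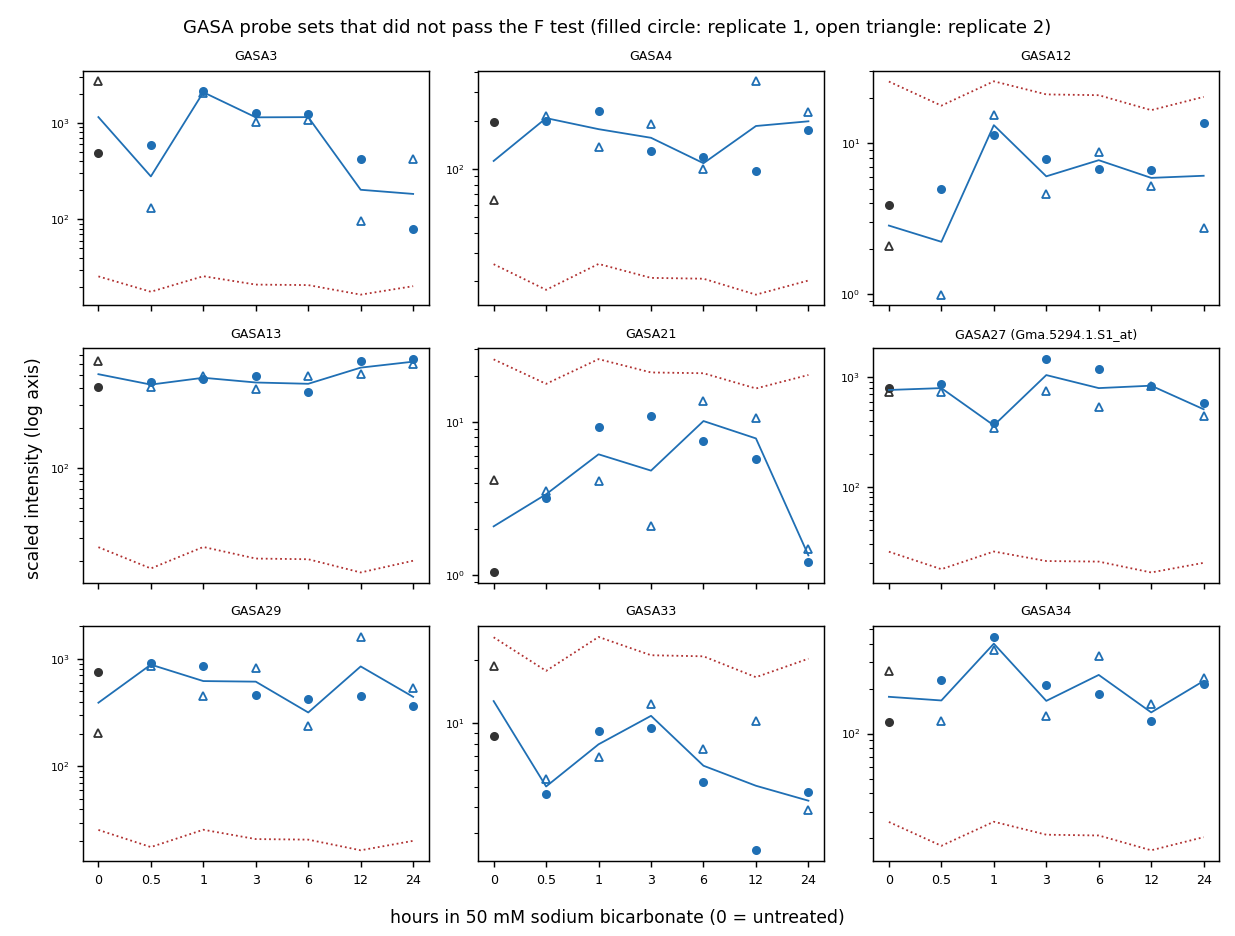
Scaled intensity (log axis) of the 9 GASA probe sets that did not pass the F test, drawn as for the changed ones, with times spaced evenly. GASA4 and GASA29 show wide gaps between replicates at 0 h and 12 h, GASA13 stays between 375 and 657, and GASA12, GASA21 and GASA33 stay below the dotted background line.

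The 2 pools of untreated leaves disagreed more for GASA genes than for the array at large. At 0 h, 7 of 20 GASA probe sets differed between replicates by over 1 log2, against 3.11% of all soybean probe sets. All soybean probe sets include 5658 that were never above background, and the comparison was not matched for brightness. Replicate 1 was higher for GASA4, GASA9, GASA24 and GASA29, and replicate 2 for GASA3, GASA34 and the dim probe set of GASA14. At 12 h, 4 of 20 differed by over 1 log2, against 2.42% of all. At every other time 1 of 20 did, against 0.527 to 2.94% of all. The share of this spread in the changes against 0 h was not tested beyond leaving out each array.

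Over the 14 arrays, the 17 GASA probe sets above background at least once showed no common course. Their 136 pairwise correlations had a median of 0.01 and ran from -0.85 to 0.99, and 7 exceeded 0.8. Of these 7, 6 were among the probe sets of GASA14 and GmaAffx.90343.1.A1_at of GASA32, and the other was GASA4 with GASA29. GASA24 ran against GASA14, with r = -0.85 on both GmaAffx.90343 probe sets and -0.80 on Gma.8347.1.S1_at. After the mean of each time was taken away, r was -0.84 on GmaAffx.90343.1.S1_at, -0.77 on GmaAffx.90343.1.S1_s_at and -0.88 on Gma.8347.1.S1_at. The replicate gap of GASA24 was widest at 0 h (-1.76 log2, replicate 2 minus replicate 1), as was that of Gma.8347.1.S1_at (1.29). These within-time values thus lean on the 2 untreated pools. The part of time course in the opposition was not tested. These values describe 14 arrays that share times and replicate pools.

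**Figure D5:**
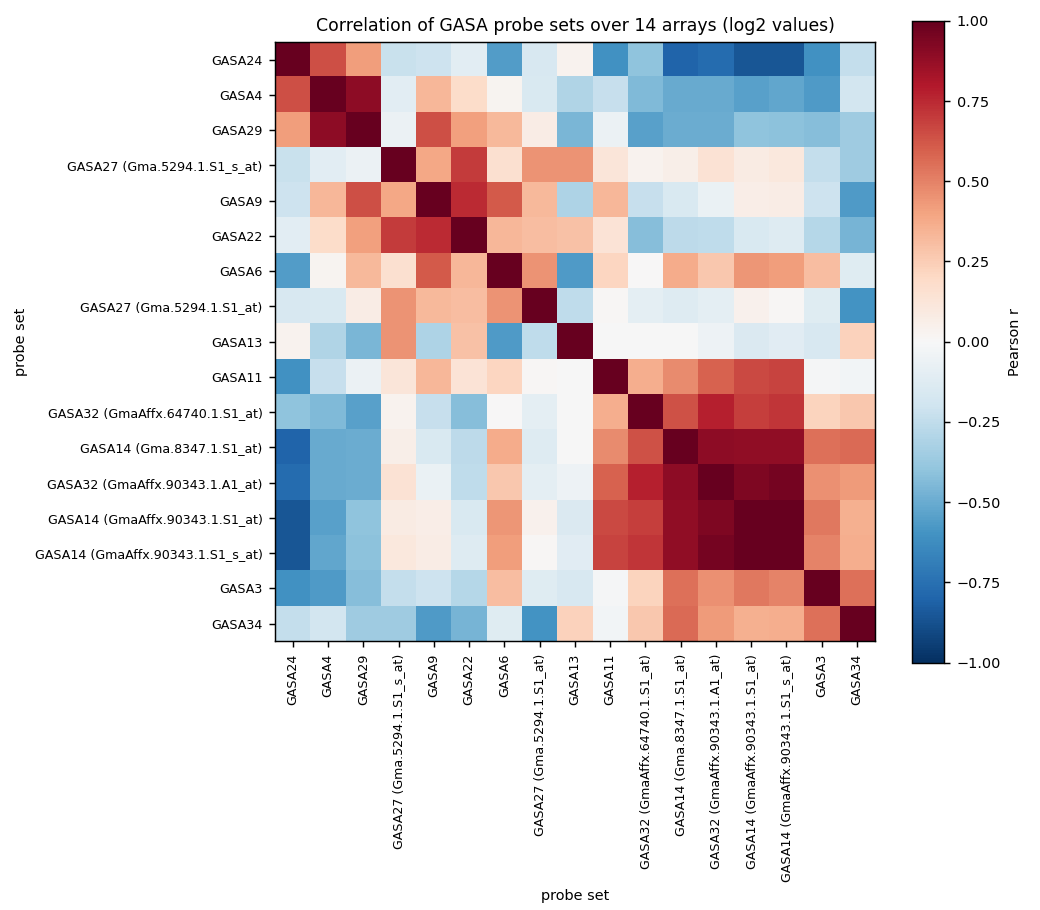
Pearson correlation of log2 values over 14 arrays between the 17 GASA probe sets above background on at least 1 array, ordered by average linkage. The GASA14 and GASA32 probe sets form a block with r up to 0.99, GASA4 and GASA29 pair at 0.90, and GASA24 is negative against GASA14 at -0.85.

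Among 1286 named probe sets above background outside the family, those most like each changing member over the 14 arrays were as follows. GASA22 was most like BZIP10 (r = 0.92), HSP90-1 (r = 0.91), a cytosolic chaperone, and HSP22.3 (r = 0.85), a small heat shock protein. By rank (Spearman) these correlations were lower, at 0.82, 0.71 and 0.57. GASA9 was most like GS1alpha (r = 0.87), GSTa (r = 0.80) and HSP90-1 (r = 0.79), which by rank were 0.79, 0.63 and 0.63. GASA14 on GmaAffx.90343.1.S1_at was most like BZIP28 (r = 0.92), CYP10 (r = 0.88) and CYP13 (r = 0.86), and its other cluster probe set had the same 3. Its probe set Gma.8347.1.S1_at was most like CYP34 (r = 0.83), DIM1 (r = 0.83) and GER10 (r = 0.82).

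GASA32 on GmaAffx.90343.1.A1_at was most like CYP13 (r = 0.88), IDH (r = 0.86) and CYP10 (r = 0.83). GASA24 was most like MIPS (r = 0.90), MYB145 (r = 0.87) and PTOX (r = 0.87), the plastid terminal oxidase. GASA27 on its shared probe set was most like the SnRK2-type kinases SPK-1 (r = 0.85) and SPK-2 (r = 0.83), and GSTU58 (r = 0.83). GASA11 was most like BZIP80 (r = 0.84), CYP71A10 (r = 0.79) and DMT1 (r = 0.79), and GASA6 like H-1 (r = 0.81), RPS6 (r = 0.72) and IDH (r = 0.71). By rank those of GASA27 were 0.76, 0.62 and 0.78, and those of GASA6 were 0.73, 0.59 and 0.66. For GASA11 they were 0.79, 0.84 and 0.80. The rank correlations of the GASA14, GASA24 and GASA32 probe sets above ran from 0.78 to 0.94.

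The gibberellin pathway was covered by 9 probe sets of 5 genes. GA20OX3 makes gibberellin precursors, GA2OX6 and GA2OX8 inactivate gibberellins, and GAI1 and GAI2 are DELLA-type repressors. At 12 h 3 of the 9 were lower and 0 higher, against 13% lower and 11.4% higher over all soybean probe sets. The median of the 9 was -0.64, against -0.03 over all. The 3 were GA20OX3 and both probe sets of GA2OX6, which were above background at neither time. At 3 h and at 24 h 1 was higher, which was GAI2 both times, against 0.95% and 2.22% of all. At 0.5, 1 and 6 h none was called, against 2.54%, 0% and 9.99% of all. At those times 2, 2 and 4 had an unadjusted p under 0.05, a cut at which the share of all soybean probe sets was not counted.

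GAI2 on Gma.13297.1.S1_at had 109 and 154 at 0 h, 173 and 167 at 0.5 h, 128 and 159 at 1 h, 305 and 276 at 3 h, 98.8 and 89.9 at 6 h, 155 and 152 at 12 h, and 236 and 261 at 24 h. It was highest at 3 h and lowest at 6 h, with no overlap with other times at either. GAI2 rose by 1.07 ± 0.17 at 3 h (adjusted p = 0.0185) and by 0.86 ± 0.17 at 24 h (adjusted p = 0.0213) against 0 h, and fell by 1.47 ± 0.17 from 3 to 6 h (adjusted p = 0.000756). Over that last step GASA22 fell as well, and GASA11, GASA14 and GASA32 rose. GAI1 had means of 281 at 3 h and 224 at 6 h on Gma.2533.1.S1_at, and of 110 and 90.8 on GmaAffx.92633.1.S1_at. From 12 to 24 h 4 of the 9 pathway probe sets, of 4 genes, were higher and 0 lower. Over all soybean probe sets 8.11% were higher and 7.04% lower. The other GAI2 probe set was above background on 1 array only.

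GA20OX3 was dim, with 6.07 and 5.22 at 12 h against 15.9 and 46.9 at 0 h, where 1 array was above background. The test called it lower at 12 h than at 0 h (adjusted p = 0.0194), a comparison that rests on that 1 array, so no fold is given. It was at least 2.55-fold lower at 12 h than at 6 h (adjusted p = 0.0105), where both arrays were above background. GA2OX6 was above background on both arrays only at 3 h, at 60.6 and 37.7 on GmaAffx.45334.1.S1_at, at least 1.87-fold above 1 h (adjusted p = 0.0316). Its lower values at 12 h lay below background, as did those at 0 h, so no fold is given.

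Of 7 probe sets of 5 cell wall growth genes, XTH1 alone was called against 0 h, at 12 h, where 24.4% of all soybean probe sets were. XTH1, a xyloglucan endotransglucosylase/hydrolase that remodels the wall, had 128 and 163 at 12 h against 474 and 1266 at 0 h, and fell by 2.30 ± 0.40 (adjusted p = 0.00197). Its 0 h arrays differed by 1.39 log2. The median of the 7 at 12 h was -0.44, against -0.03 over all soybean probe sets. At 12 h GASA9, GASA11, GASA22 and GASA27 were higher and XTH1 was lower.

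The clock gene LHY, a morning factor, was low at 12 h in the same samples. On Gma.17697.1.S1_at it had 1975 and 1611 at 0 h, 2120 and 2044 at 0.5 h, 1999 and 1717 at 1 h, 1589 and 1741 at 3 h, 686 and 753 at 6 h, 61.0 and 152 at 12 h, and 2528 and 2689 at 24 h. LUXC, an evening factor, read 265 and 298 at 6 h and 438 and 349 at 12 h against 66.4 and 51.5 at 0 h on GmaAffx.9286.1.S1_s_at. The 6 h and 12 h changes of the GASA genes fall where these clock genes were far from their 0 h levels, and the part of time of day in them cannot be told apart from that of treatment.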

How the data were processed

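Each deposited value is a linear intensity (0.92 to 12812.33) of 1 probe set on 1 Affymetrix array with biotin-labelled cRNA, per the labels' protocols. How the authors summarised and scaled the probes is not given in the sources used here. Scaling set every array's soybean median to 56.4, moving a median change by at most 0.0588 log2, and log2(value + 16) was tested. All 61170 probe sets were read; 23350 of 2 other organisms gave the background and 227 controls were left out. limma 3.58.1 in R 4.3.3 fitted 7 time means to 14 arrays with no filter, 7 residual and 4.24 prior degrees of freedom; tests were two-sided. The fit was tested on simulated data. The number of arrays limits the precision, with a median SE of 0.19. P-values measure the spread between pools of 3 plants.

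An "at least" fold sets the bright group's mean log2 intensity against, per dim array, the higher of background and signal. Gene names come from the platform's annotation, which can be old, and 0 of the 20 GASA probe sets matched the Glycine soja gene table given. Named genes were every GASA probe set, the 3 most alike named genes for each that passed the F test (other than a GASA32 probe set above background on 1 array), and list members by lowest p. GASA genes, lists and tests were chosen with earlier results of these data known. Alternatives were other normalizations, pseudocounts, filters, fits and thresholds, and each array left out. For single genes they covered the GASA probe sets only. The calls of GAI2, GA20OX3, GA2OX6 and XTH1 were not rechecked in this way. Replicate numbers showed no strong pairing of the samples: deviations of same-numbered arrays correlated at -0.22 to 0.23 over 21 pairs of times, and 4 exceeded 0.1. A weak pairing could be missed this way.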

Additional observations from a re-analysis of the deposited data

Results flagged for a closer look

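GASA22 changed in opposite directions at 6 h and 12 h against the same 0 h arrays, lower at 6 h (-1.38 ± 0.15) and higher at 12 h (1.95 ± 0.15). The test of that difference by limma gave 3.33 ± 0.15 (12 h minus 6 h, adjusted p = 1.54e-06). It also changed in opposite directions at 12 h and 24 h, where the test of the difference gave -2.59 ± 0.15 (24 h minus 12 h, adjusted p = 1.3e-06). A called test of the difference was part of the rule that flagged both results, so it is no separate support. The 24 h change of GASA22 against 0 h was small (-0.64 ± 0.15, adjusted p = 0.039 by limma). That call ended without either 0 h, 0.5 h or 24 h array and in 8 of 12 other settings. Both 12 h arrays lay above every other array.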

How the results depend on the processing

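Of 39 calls of single GASA probe sets, 13 against 0 h and 26 between consecutive times, 12 held without each array in turn, 4 against 0 h (GASA22 at 6 and 12 h, GASA14 on GmaAffx.90343.1.S1_at and GASA32 on GmaAffx.90343.1.A1_at at 6 h) and 8 between times. No called change reversed; 1 uncalled one did, GASA24 at 12 h, at -0.73 without 0 h replicate 2 and 1.02 without 0 h replicate 1. Leaving out 1 array gave 0 to 2 calls at 0.5 h, 0 to 0 at 1 h, 0 to 1 at 3 h, 3 to 7 at 6 h, 1 to 4 at 12 h and 0 to 4 at 24 h. The step counts were 0 to 5 from 0.5 to 1 h, 0 to 3 from 1 to 3 h, 3 to 8 from 3 to 6 h, 1 to 8 from 6 to 12 h and 5 to 9 from 12 to 24 h, and the F test gave 7 to 13. Among the lowest counts, some came without 12 h replicate 2 (12 h) and without 0 h replicate 2 or either 24 h array (24 h). Others came without 6 h replicate 2 (6 h and both steps touching it), without 12 or 24 h replicate 1 (12 to 24 h) and without 24 h replicate 1 (F test). Each such fit leaves a time with 1 array. The share called of all soybean probe sets fell in such fits as well, for example at 24 h without 24 h replicate 1.

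The 0.5 h count was 0 with quantile normalization, 0 without scaling, 0 with only the groups compared and 0 at a threshold of 0.01. Of all soybean probe sets, 2.42%, 2.53%, 0.466% and 0.612% were called there, in the same order. With log2(value + 1) the counts were 1 at 24 h, 1 from 1 to 3 h and 3 from 6 to 12 h, and with log2(value + 64) 0 from 0.5 to 1 h. The shares of all soybean probe sets were 2.53%, 0.681%, 6.95% and 5.51%, in the same order. With a threshold of 0.01 the counts were 1 at 12 h, 0 at 24 h, 0 from 0.5 to 1 h, 0 from 1 to 3 h, 2 from 6 to 12 h and 7 by the F test. For all soybean probe sets the shares were 11.9%, 0.327%, 0.492%, 0.101%, 3.04% and 12.3%. With only the groups compared the counts were 3 at 6 h, 2 at 12 h, 1 at 24 h, 0 from 1 to 3 h and 4 from 6 to 12 h. All soybean probe sets then had shares of 4.56%, 9.69%, 0.628%, 0% and 5.1%. Trend and robust settings gave 1 at 3 h, where 2.9% of all soybean probe sets were called. With the replicate number as a block, though it showed no strong pairing, the 3 h count was 1 (GASA11, adjusted p = 0.0477, with 1.51% of all called), and no other count moved by over 1.5 times. Under it 4 calls were lost, GASA22 at 24 h (adjusted p = 0.0529), GASA32 on GmaAffx.64740.1.S1_at at 6 h (0.0511), GASA27 on Gma.5294.1.S1_s_at from 1 to 3 h (0.0530) and GASA32 from 12 to 24 h (0.0561). GASA11 at 6 h (0.0432) and GASA27 on Gma.5294.1.S1_at from 1 to 3 h (0.0299) were gained. Without both 0.5 h arrays, an alternative added after the data were seen, the count from 1 to 3 h was 1. The cause was not tested. Dim members are limited by background, which was 14.8 to 28.6.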
